A study of Bos taurus with 6 samples.

Results

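The genes described are NR4A1, PTPN5, PDE4A and ETV5, 4 of the 29154 genes counted in MAC-T cells, an established line of bovine mammary epithelial cells. NR4A1, PTPN5 and PDE4A were selected on the very contrast described here: they are in the study's list of higher genes, chosen by an unadjusted p under 0.05 from DESeq2 and a log2 fold change over 1. ETV5 did not meet that criterion and was chosen with earlier results of the same libraries known, as a gene whose transcription follows ERK activity. All values of these 4 genes between the groups are therefore a description and carry no test. The question put to the data was whether the signalling regulators and the ERK output gene point the same way.

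Cells in both groups were grown in DMEM/F12 with serum and transfected at a final concentration of 100 nM, in one group with an inhibitor of miR-375 and in the other with a negative control inhibitor (inhibitor NC). The titles, sample descriptions, treatment protocol and the study's methods name the inhibitor, while the growth protocol and the design text speak of miR-375 itself. The titles were followed here, and all directions rest on them. The study's methods also describe a qPCR check of the inhibition of miR-375, which was not used here. RNA was taken 48 h after transfection, and each group gave 3 mRNA libraries. Per library, the counts on genes summed to 14479278, 16213226 and 16047812 in inhibitor NC replicates 1, 2 and 3, and to 15228121, 14903099 and 16324556 in the same order in the miR-375 inhibitor group. The labels do not say whether the replicates were separate cultures, so p-values measure only the spread between these libraries, which may be technical. Transfection was transient, none of the libraries came from cells without an oligonucleotide, and the level of miR-375 itself was not analysed here.

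In the MAPK cascade, growth factor receptors activate RAS, which passes the signal through RAF and MEK to the kinase ERK. ERK phosphorylates transcription factors and so switches on immediate early genes and genes of the PEA3 group of ETS factors, to which ETV5 belongs. In mammary epithelium this cascade works downstream of the EGF and FGF receptors and takes part in proliferation and branching. Cyclic AMP is a second messenger made by adenylyl cyclases and broken down by phosphodiesterases such as PDE4A. Its kinase PKA meets the MAPK cascade at several points, and NR4A1 is a gene that both pathways can induce.

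In counts, NR4A1, PTPN5 and PDE4A, called regulators here, and ETV5 pointed in opposite directions. Direction of counts is not direction of signalling, since PTPN5 acts against ERK and NR4A1 is itself a gene that the cascade can induce. Pathway activity was not tested. NR4A1, PTPN5 and PDE4A had higher normalized counts in each miR-375 inhibitor library than in each inhibitor NC library, while ETV5 had lower ones. Groups thus did not overlap in 4 of the 4 genes, beside 14.1% of the 20755 genes counted at least once in some library, and nothing is read from that share, since the genes were chosen on this contrast. The sizes were unequal: between 2.06 and 3.91 times as high for the regulators, which had 36 counts or fewer in each library, and 0.893 times as high for ETV5, which had 1233 or more. Gene lengths were not used, so counts of different genes are not compared as levels.

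NR4A1 (ENSBTAG00000000507) encodes an orphan nuclear receptor, also known as Nur77, which acts as a transcription factor and is itself an immediate early gene. It had 13, 14 and 16 counts in inhibitor NC replicates 1 to 3, and 36, 20 and 31 counts in miR-375 inhibitor replicates 1 to 3. After TMM normalization for library size, these were 13.8, 13.3 and 15.4 against 37.1, 21.0 and 29.6 counts. The control libraries lay close together, while miR-375 inhibitor replicate 2 was the lowest and replicate 1 the highest of a wider group. Means of the groups were 14.2 ± 1.05 with inhibitor NC and 29.2 ± 8.04 normalized counts with the miR-375 inhibitor (SD, n = 3 each), a log2 fold change of 1.04 with a standard error of 0.32.

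PTPN5 (ENSBTAG00000020257) encodes a protein tyrosine phosphatase best known from neurons, where it is called STEP and removes a phosphate from the activation loop of ERK and p38. Counts were 2, 3 and 1 in inhibitor NC replicates 1 to 3, and 6, 8 and 9 in miR-375 inhibitor replicates 1 to 3. The gene was close to the limit of detection in the control libraries, where 1 count more or less moves a library by a large share of its value. Means of the groups were 1.98 ± 0.958 with inhibitor NC and 7.73 ± 1.35 normalized counts with the miR-375 inhibitor (SD, n = 3 each). The ratio of the summed counts, 23 against 6, was 3.91 after normalization for library size, with an exact 95% interval from 1.55 to 11.7 that covers counting error only.

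PDE4A (ENSBTAG00000012032) encodes a phosphodiesterase specific for cyclic AMP. It had 6, 8 and 4 counts in inhibitor NC replicates 1 to 3, and 17, 22 and 11 counts in miR-375 inhibitor replicates 1 to 3. In both groups replicate 2 was the highest and replicate 3 the lowest, and the lowest miR-375 inhibitor library, with 10.5 normalized counts, stood above the highest control library, with 7.62. Means of the groups were 5.95 ± 1.93 with inhibitor NC and 17.0 ± 6.31 normalized counts with the miR-375 inhibitor (SD, n = 3 each), a log2 fold change of 1.49 with a standard error of 0.47.

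ETV5 (ENSBTAG00000014915) encodes an ETS transcription factor of the PEA3 group. It had 1360, 1476 and 1456 counts in inhibitor NC replicates 1 to 3, and 1263, 1261 and 1233 counts in miR-375 inhibitor replicates 1 to 3. Normalized counts were 1448, 1406 and 1397 against 1300, 1325 and 1178, so that the gap between the nearest libraries of the groups was smaller than the gap separating miR-375 inhibitor replicate 3 from the rest of its group. Means of the groups were 1417 ± 27.3 with inhibitor NC and 1268 ± 78.5 with the miR-375 inhibitor (SD, n = 3 each), a log2 fold change of -0.16 with a standard error of 0.06.

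**Figure D1:**
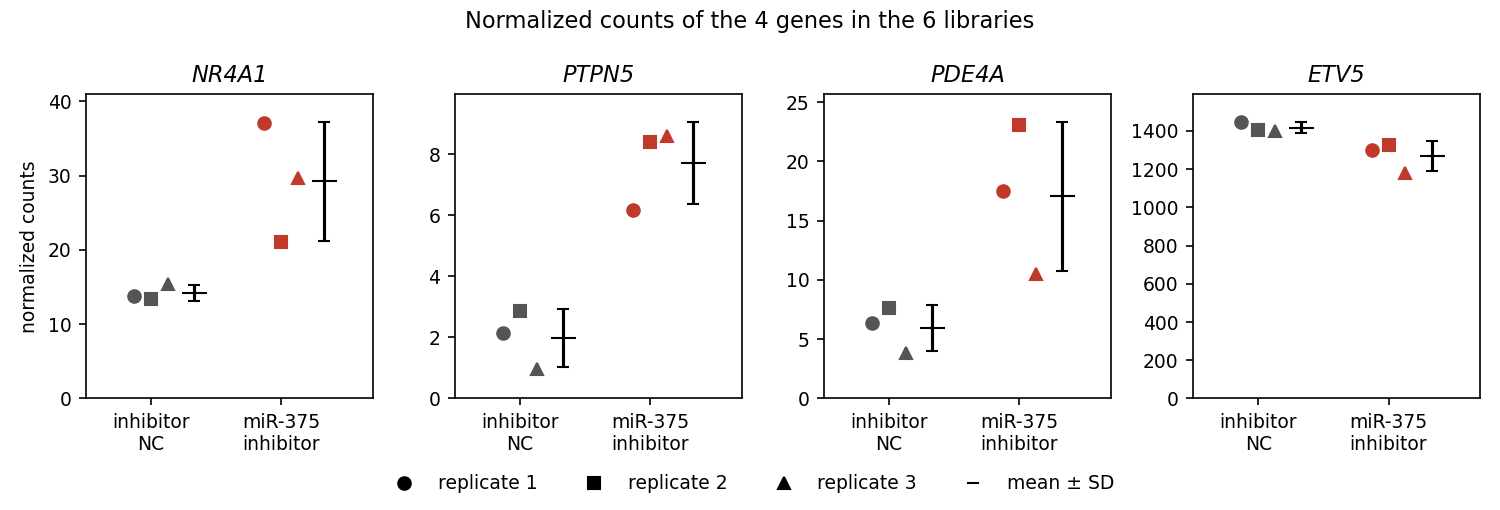
Normalized counts (y axis, from 0, with a scale of its own for each gene) of NR4A1, PTPN5, PDE4A and ETV5 in the inhibitor NC and miR-375 inhibitor groups (x axis), with circles, squares and triangles for replicates 1, 2 and 3 and, beside them, the mean and SD of each group of 3 libraries as a bar. NR4A1 lies between 13.3 and 15.4 in the control libraries and from 21.0 to 37.1 with the miR-375 inhibitor, whereas ETV5 lies between 1397 and 1448 and between 1178 and 1325.

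The depth behind the genes differed widely. Summed over the 3 libraries of a group, NR4A1 had 87 counts with the miR-375 inhibitor and 43 with inhibitor NC, a normalized ratio of 2.06 with an exact 95% interval from 1.42 to 3.05. PDE4A had 50 against 18 summed counts, a ratio of 2.83 with an interval from 1.63 to 5.16. For ETV5 the 3757 and 4292 summed counts gave a ratio of 0.893 with an interval from 0.855 to 0.934. The intervals were thus wide for the 3 regulators and narrow for ETV5, whose miR-375 inhibitor libraries spread by 6.19% of their mean (SD). These intervals cover counting error only, not the spread between libraries.

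The 3 regulators did not order the miR-375 inhibitor libraries in the same way. NR4A1 was highest in replicate 1, PDE4A in replicate 2 and PTPN5 in replicate 3, and NR4A1 was lowest in the library where PDE4A was highest. ETV5 was lowest in replicate 3, where PDE4A was lowest too and PTPN5 highest. As distance between genes, the root mean square difference of their centred log2(normalized count + 1) values was taken over the 6 libraries. It was smallest for PTPN5 and PDE4A, at 0.39, and largest for PTPN5 and ETV5, at 0.94. The distance of NR4A1 was 0.58 from PTPN5, 0.59 from PDE4A and 0.62 from ETV5, so by this measure it stood nearly as far from the other regulators as from ETV5. These distances grow with counting noise at few counts.

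Libraries with the same replicate number gave log2 ratios of 1.42, 0.66 and 0.95 for NR4A1 in replicates 1, 2 and 3. For PTPN5 the ratios were 1.54, 1.56 and 3.16, the last against a control library with 1 count. For PDE4A they were 1.45, 1.60 and 1.45, the narrowest range of the regulators. For ETV5 they were -0.16, -0.09 and -0.25. Ranked by the share of bases at Q30 in the study's sequencing summary, the 3 lowest libraries were miR-375 inhibitor replicate 2 and inhibitor NC replicates 2 and 1. This division is one by rank: the widest gap lies between replicate 2 of both groups and the other 4 libraries. Within the 3 lower and the 3 higher libraries, the log2 ratio between groups was 0.63 and 1.12 for NR4A1, 1.75 and 2.94 for PTPN5, 1.72 and 1.87 for PDE4A, and -0.11 and -0.17 for ETV5. Each side held a single library of one group. Among the 4 libraries above the gap, a division chosen after the data were seen, the log2 ratio was 1.19 for NR4A1, 2.26 for PTPN5, 1.45 for PDE4A and -0.20 for ETV5.

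Set among genes of like count, the size of each difference was as follows, again as a description. Of the 2395 genes with a mean of 10 to 50 normalized counts, 10 were at least as much higher in the miR-375 inhibitor group as NR4A1 and 2 as PDE4A, these genes included. The median standard error of the log2 fold change in that range was 0.32. Of the 3456 genes with a mean of 1 to 10, 78 were at least as much higher as PTPN5. Of the 1801 genes with a mean of 1000 to 2000, 120, or 6.66%, were at least as much lower as ETV5. Differences the size of that of ETV5 were thus more frequent among genes of like count than those the size of the 3 regulators, which a threshold on fold change had selected.

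At an adjusted p under 0.05 by the quasi-likelihood test of edgeR, with Benjamini-Hochberg adjustment over all genes, 0 of the 4 genes were called, beside 1.69% of the 20755 genes. An unadjusted p under 0.05 was reached by 4 of the 4 in edgeR, beside 10.6% of all genes. DESeq2, whose filter on low means gave an adjusted p to 6671 genes only, gave one to 1 of the 4, ETV5. It called 0 of the 4, beside 74 of those 6671 genes, a background that applies to each DESeq2 count of calls below. An unadjusted p under 0.05 in DESeq2 was reached by 4 of the 4, beside 5.63% of all genes. The study's criterion in DESeq2 was met by 3 of the 4, beside 0.304% of all genes. None of these counts is a test of the genes, as they were chosen on the same values.

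The criterion for higher genes passed close by PTPN5. Among genes with a symbol and a DESeq2 log2 fold change over 1, the ones just inside were ARHGAP8, with an unadjusted DESeq2 p of 0.0404, and PTPN5, with 0.0428. Just outside were SPIN4, with 0.0997, and CBX3, with 0.174. ARHGAP8 had 0 counts in each inhibitor NC library and 6, 3 and 0 counts in miR-375 inhibitor replicates 1 to 3. SPIN4 had 5, 11 and 1 counts against 6, 19 and 14, and CBX3, a heterochromatin protein 1 gene, had 0, 1 and 2 counts against 6, 2 and 3. All 4 of these genes had 19 counts or fewer in every library.

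The other genes of the MAPK pathway were described from a list of 22 genes written by pathway knowledge from the symbols that the study's tables pair with an identifier. ERK, MEK and most of the usual feedback genes of the cascade were not among those symbols and were not analysed here. At least 1 count was recorded for 19 of the 22. By the quasi-likelihood test of edgeR (Benjamini-Hochberg adjustment), 0 of the 19 had an adjusted p under 0.05, beside 1.69% of all genes, and 5 had an unadjusted p under 0.05, 1 higher and 4 lower, beside 10.6%. DESeq2 called 0 of the 9 to which it gave an adjusted p, with 2 of the 19 at an unadjusted p under 0.05, beside 5.63% of all genes. The median log2 fold change of the 16 genes that averaged at least 10 normalized counts was -0.04, beside -0.00 over the 14137 such genes. The higher gene was FLNA, the actin crosslinker filamin A and the most abundant of the list by counts, with 29589, 34189 and 34323 counts with inhibitor NC against 33421, 32324 and 35627, a log2 fold change of 0.08 with a standard error of 0.04. PAK2, a kinase downstream of RAC and CDC42, had a log2 fold change of -0.08 with a standard error of 0.05, and IRAK1, a kinase of the interleukin 1 receptor, one of 0.05 with a standard error of 0.06. PAK2 was at -0.05 without inhibitor NC replicate 3, and IRAK1 at 0.00 without inhibitor NC replicate 1 and 0.08 without inhibitor NC replicate 3.

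The 4 lower genes were named after their values were seen. TNIK, a kinase that acts on the JNK branch, had 1239, 1283 and 1107 counts with inhibitor NC against 961, 1004 and 1069. Its log2 fold change was -0.23 with a standard error of 0.07, and its adjusted p was 0.074 by the quasi-likelihood test of edgeR (Benjamini-Hochberg adjustment), the smallest of the list. With 1 library left out, the log2 fold change of TNIK lay between -0.31 and -0.16. RASA2, a GTPase-activating protein that switches RAS off, had 671, 873 and 980 counts against 680, 570 and 808, and the groups overlapped. Its log2 fold change was -0.26 with a standard error of 0.08, which was -0.16 without inhibitor NC replicate 3 and -0.17 without miR-375 inhibitor replicate 2. MAP3K13, a kinase at the top of the JNK branch, and RPS6KA6, an RSK kinase, had log2 fold changes of -0.30 and -0.24 with standard errors of 0.13 and 0.11, and groups that did not overlap. That was so for 4 of the 19 genes, 1 higher (FLNA) and 3 lower (TNIK, MAP3K13 and RPS6KA6), beside 14.1% of all genes. RPS6KA6 was at -0.15 without inhibitor NC replicate 2, and MAP3K13 lay between -0.35 and -0.21 with 1 library left out. None of the 4 lower genes, RASA2 included, passed the adjusted threshold. FGF12, FGF16 and DUSP9, a phosphatase of ERK, were at 0 in every library, which leaves DUSP9 with nothing to set beside PTPN5.

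Of 22 genes of cyclic AMP signalling and its G protein-coupled receptors, 15 had at least 1 count and 6 a mean of at least 10 normalized counts. By the quasi-likelihood test of edgeR (Benjamini-Hochberg adjustment), 0 had an adjusted p under 0.05 (1.69% of all genes), and 2 had an unadjusted p under 0.05, both lower (10.6% of all genes). DESeq2 called 0 of the 3 to which it gave an adjusted p, with 1 of the 15 at an unadjusted p under 0.05 (5.63% of all genes). All 6 genes with a mean of at least 10 had a log2 fold change below 0, beside 7145 of the 14137 such genes, with a median of -0.17 and a range from -0.39 to -0.06. Only GNB4 among these 6 had an unadjusted p under 0.05 in edgeR. The others were PLD1, TIAM1, PIK3CA, PIK3CB and PDE9A, so no adenylyl cyclase was among the 6. This list too was drawn from the paired symbols only, and it held no subunit of PKA. The most abundant by counts were PIK3CB and PIK3CA, catalytic subunits of phosphoinositide 3-kinase, with log2 fold changes of -0.06 and -0.10 and standard errors of 0.07 and 0.08, and GNB4, a G protein beta subunit. With 1 library left out, PIK3CB lay between -0.12 and -0.00 and PIK3CA between -0.18 and -0.03. GNB4 had 1015, 1353 and 1361 counts with inhibitor NC against 1130, 885 and 1255, a log2 fold change of -0.16 with a standard error of 0.07, and the groups overlapped. That difference was -0.05 without miR-375 inhibitor replicate 2 and -0.24 without inhibitor NC replicate 1.

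Among the genes of this list that were named after their values were seen, GPR101, an orphan receptor coupled to adenylyl cyclase, had 6, 13 and 10 counts with inhibitor NC and 2 in each miR-375 inhibitor library. It is in the study's own list of lower genes, so its difference was selected on these libraries too. PDE9A, a phosphodiesterase of cyclic GMP, had 19, 18 and 11 counts against 8, 14 and 14, with overlapping groups and a log2 fold change of -0.39 with a standard error of 0.40, which was -0.18 without miR-375 inhibitor replicate 1 and -0.62 without inhibitor NC replicate 3. P2RY14, a receptor with a mean of 8.59 normalized counts, had 8, 7 and 7 counts with inhibitor NC and 8, 14 and 7 with the miR-375 inhibitor. It stood at a log2 fold change of 0.43 with a standard error of 0.52. Only miR-375 inhibitor replicate 2 stood apart, with 14 counts where each other library had 7 or 8. ADCY5, an adenylyl cyclase, had between 0 and 3 counts in each library. The receptors AVPR2, LPAR4, DRD3, HTR1F, SUCNR1 and P2RY12 and the channel CNGA2 were at 0 in every library.

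ETV5 was set beside the ETS factors ETS2, ERG, ELK1, ELF4 and GABPA. By the quasi-likelihood test of edgeR (Benjamini-Hochberg adjustment), 0 of the 5 had an adjusted p under 0.05 and 0 an unadjusted p under 0.05 (1.69% and 10.6% of all genes). DESeq2 gave an adjusted p to 3 of them and called 0, with 0 at an unadjusted p under 0.05, beside 5.63% of all genes. ETS2, which ERK phosphorylates, had 815, 905 and 974 counts with inhibitor NC against 886, 838 and 1182, a log2 fold change of 0.13 with a standard error of 0.08, which was 0.01 without miR-375 inhibitor replicate 3. GABPA and ELF4 had log2 fold changes of -0.10 and -0.09 with standard errors of 0.08 and 0.09, and with 1 library left out they lay between -0.16 and -0.06 and between -0.12 and -0.06. Of the 5 factors, 1 had groups that did not overlap, ELF4, which was lower, beside 14.1% of all genes. ELK1, the factor through which ERK acts on serum response elements, had a log2 fold change of -0.01 with a standard error of 0.09. ERG had 1 count in a single library. The median of the 4 with a mean of at least 10 was -0.05.

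NR4A1 was set beside 5 other immediate early genes, CCNL1, HES1, NFKBIZ, RCAN1 and TIPARP, of which each had 700 counts or more in each library. By the quasi-likelihood test of edgeR (Benjamini-Hochberg adjustment), 0 of the 5 had an adjusted p under 0.05 (1.69% of all genes) and 2 had an unadjusted p under 0.05, both lower (10.6% of all genes). DESeq2 gave all 5 an adjusted p and called 0, with 1 at an unadjusted p under 0.05 (5.63% of all genes). The median log2 fold change was -0.04. RCAN1, an inhibitor of calcineurin, had 13237, 13814 and 12023 counts with inhibitor NC against 10838, 11935 and 12331, a log2 fold change of -0.13 with a standard error of 0.05, which was -0.06 without inhibitor NC replicate 1 and -0.20 without inhibitor NC replicate 3. NFKBIZ, a nuclear regulator of NF-κB named after its values were seen, had 886, 1060 and 930 counts against 767, 864 and 700. Its log2 fold change was -0.27 with a standard error of 0.08, and its adjusted p was 0.064 by the quasi-likelihood test of edgeR (Benjamini-Hochberg adjustment). Without miR-375 inhibitor replicate 3 the difference was -0.16. TIPARP and CCNL1 had log2 fold changes of 0.01 and -0.04 with standard errors of 0.06 and 0.07. With 1 library left out they lay between -0.02 and 0.04 and between -0.09 and -0.02. None of these 5 genes had a difference of the size of that of NR4A1, at 1.04. A threshold on fold change had selected NR4A1, which had 36 counts or fewer in each library, so nothing is read from that. FOS, EGR1 and the other NR4A genes were not among the paired symbols and were not analysed here.

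NRIP1, a cofactor of nuclear receptors, had 1665, 2051 and 2112 counts with inhibitor NC against 1651, 1461 and 1946, and the groups overlapped. Its log2 fold change was -0.18 with a standard error of 0.06, and its adjusted p was 0.20 by the quasi-likelihood test of edgeR (Benjamini-Hochberg adjustment). The difference was -0.11 without miR-375 inhibitor replicate 2. NR1I2, a nuclear receptor for foreign compounds, had 1 count in a single library. Of the phosphatases that share the fold of PTPN5, DUSP9, MTM1, MTMR1 and MTMR8, 3 had at least 1 count. In the same edgeR test with Benjamini-Hochberg adjustment 0 of the 3 had an adjusted p under 0.05 and 0 an unadjusted p under 0.05 (1.69% and 10.6% of all genes). DESeq2 gave an adjusted p to 0 of them, with 0 at an unadjusted p under 0.05, beside 5.63% of all genes. The lipid phosphatase genes MTMR1, MTM1 and MTMR8 had log2 fold changes of 0.03, 0.10 and -0.34 with standard errors of 0.10, 0.13 and 0.20. With 1 library left out, MTMR1 lay between -0.01 and 0.05, MTM1 between -0.03 and 0.21, and MTMR8 between -0.47 and -0.18.

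**Figure D2:**
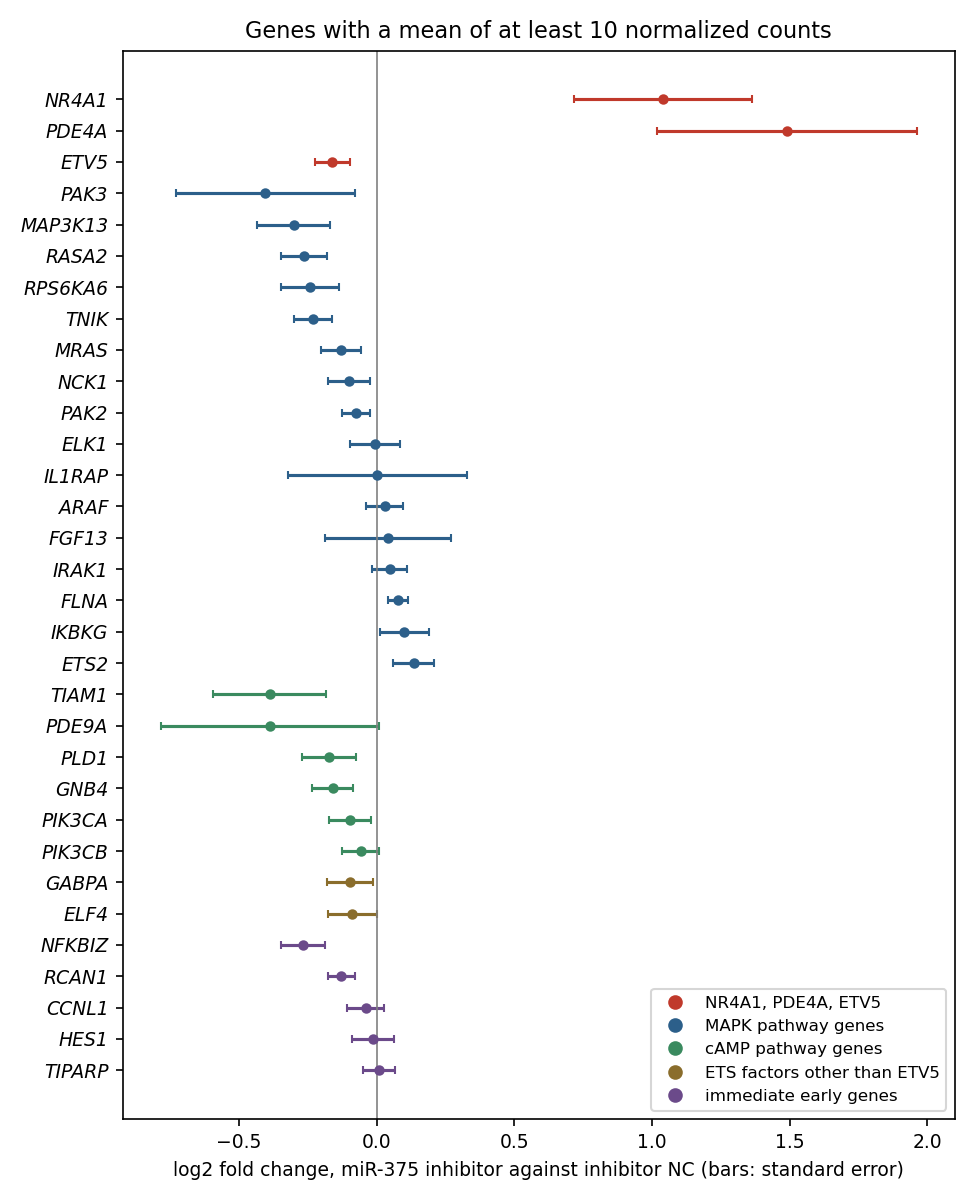
Log2 fold change of the miR-375 inhibitor group against inhibitor NC (x axis, points, with 3 libraries in each group) and its standard error (bars) for NR4A1, PDE4A and ETV5 and for the genes of 4 pathway lists with a mean of at least 10 normalized counts (y axis, coloured by list). NR4A1 and PDE4A lie at 1.04 and 1.49. The genes shown of the MAPK list lie between -0.40 and 0.13 and those of the cyclic AMP list between -0.39 and -0.06. A threshold on fold change had selected NR4A1 and PDE4A, so nothing is read from their place outside these ranges. PDE4A averaged 5.95 normalized counts with inhibitor NC and 17.0 with the miR-375 inhibitor. The limit on the mean left out genes with fewer counts, among them GPR101, below the cyclic AMP range, and P2RY14, above it.

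The genes whose profile over the 6 libraries was most like that of a member were sought among the 734 other genes with a symbol and a mean of at least 10 normalized counts, by the same root mean square difference. They were chosen by the values of these libraries, and nothing is said of shared function or control. For NR4A1 they were LAGE3, C1H3orf70 and CFAP410, at differences of 0.32, 0.33 and 0.35. LAGE3 had 102, 92 and 107 counts with inhibitor NC against 148, 117 and 132, with replicate 2 lowest and replicate 1 highest of the miR-375 inhibitor group, as for NR4A1. Its log2 fold change of 0.43 with a standard error of 0.15 was well under that of NR4A1. For PDE4A they were ST6GAL1, a sialyltransferase gene, NEK11 and TM4SF4, at 0.49, 0.51 and 0.56. ST6GAL1 had 24, 35 and 21 counts against 34, 41 and 31, with the order of the replicates of PDE4A in both groups, but its groups overlapped.

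For ETV5 the most alike were HDAC6, a cytoplasmic deacetylase gene, RAP2C, a RAS-related GTPase gene, and MFSD1, at differences of 0.04, 0.04 and 0.05. HDAC6 had 660, 767 and 746 counts with inhibitor NC against 609, 646 and 618, a log2 fold change of -0.18 with a standard error of 0.08. RAP2C had 1373, 1490 and 1526 counts against 1290, 1322 and 1360, which gave a log2 fold change of -0.11 with a standard error of 0.06. The distances of ETV5 were small because its own differences were small. No like genes were sought for PTPN5, whose mean was 4.86 normalized counts.

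In the RefSeq gene table of assembly ARS-UCD2.0, the 2 genes on one side of ETV5 are DGKG and CRYGS, and on the other the pseudogene LOC616971, which no symbol paired with an identifier, and TRA2B. DGKG and CRYGS had between 0 and 2 counts in each library. TRA2B, a splicing regulator, had 2795, 3074 and 3040 counts with inhibitor NC against 2938, 2755 and 3110, a log2 fold change of 0.01 with a standard error of 0.05. Without 1 library TRA2B was between -0.00 and 0.03. LOC616971, which lies between ETV5 and TRA2B, was not read.

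The epithelial label of the cells could be checked only in part, since keratins and milk proteins were not among the paired symbols and were not analysed here. Of the epithelial markers TP63, CLDN1, CLDN8, MUC4 and ILDR1, CLDN1, a tight junction claudin, was the most abundant by counts. It fell in the miR-375 inhibitor group, with 200, 182 and 160 counts with inhibitor NC against 129, 114 and 126, lower in 3 of 3 libraries. Its log2 fold change was -0.53 with a standard error of 0.13 and an adjusted p of 0.022 by the quasi-likelihood test of edgeR (Benjamini-Hochberg adjustment). DESeq2 gave CLDN1 no adjusted p. The call ended with either filter on low counts, where the adjusted p was 0.18 for both, and without inhibitor NC replicate 1, where it was 0.49. It also ended without inhibitor NC replicate 2, miR-375 inhibitor replicate 1 or miR-375 inhibitor replicate 3, with adjusted p of 0.056, 0.065 and 0.097 in the same edgeR test, in a full range from 0.000668 to 0.49 across the settings tried. The log2 fold change was -0.53 with both filters, -0.40 without inhibitor NC replicate 1, and between -0.58 and -0.50 in the other 3 fits that lost the call. With the 3 lowest Q30 libraries as a covariate CLDN1 was called with an adjusted p of 0.011 in edgeR. Of the 4 epithelial markers with at least 1 count, edgeR thus called 1, beside 1.69% of all genes, with 1 at an unadjusted p under 0.05, beside 10.6%, and DESeq2 gave an adjusted p to 0 of them, with 1 at an unadjusted p under 0.05, beside 5.63%. TP63, a factor of basal cells, had 10, 14 and 16 counts against 4, 10 and 10. After normalization these were 10.7, 13.3 and 15.4 against 4.12, 10.5 and 9.56, so that its groups did not overlap either. Groups thus did not overlap in 2 of the 4 epithelial markers with at least 1 count, both lower, beside 14.1% of all genes. TP63 stood at a log2 fold change of -0.70 with a standard error of 0.47, which lay between -0.92 and -0.39 with 1 library left out. CLDN8 and MUC4 had between 0 and 7 counts in each library, and ILDR1 was at 0. The summed level of the 5 genes was 14.9, 12.1 and 11.1 CPM (counts scaled to the normalized library size) with inhibitor NC against 9.35, 8.93 and 8.49 with the miR-375 inhibitor. Without CLDN1 it was 1.17, 0.981 and 1.24 CPM against 0.795, 1.22 and 0.738, and this sum overlapped between groups, with MUC4 at 5, 2 and 3 counts against 7, 7 and 2. Fewer cells of a type and less RNA per cell cannot be told apart in such libraries, and the part of these markers in the differences of the 4 genes was not tested.

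Markers of other cell types were mixed. Of 7 leukocyte markers, 7 had a mean under 10 normalized counts, with CD86 at 0 and ITGB2, the most abundant, at 2 to 4 counts, and their summed level was between 0.343 and 0.796 CPM in each library. Of the endothelial markers, the defining factor ERG was near 0, while JAM2 had 312 to 367 and HEG1 483 to 659 counts, with sums of 54.5, 56.4 and 62.5 CPM against 58.1, 55.2 and 61.7. Among 5 fibroblast markers, COL6A1 was the most abundant, with 11738, 13266 and 12712 counts against 12815, 12959 and 13993, and LUM had 11, 7 and 0 counts against 0, 0 and 2. COL8A1 and BGN had between 0 and 4 counts in each library. The fibroblast sums were 926, 930 and 899 CPM against 970, 1008 and 982, and the groups did not overlap. COL6A1 made up most of them: without it the sums were 121, 116 and 114 CPM against 121, 131 and 121, and the groups overlapped. In normalized counts neither COL6A1 nor COL6A2 overlapped between groups, as was so for 17.9% of the 14137 genes that averaged at least 10, COL6A2 with 1865, 1799 and 1764 against 1878, 2039 and 1875. The log2 fold change was 0.11 with a standard error of 0.04 for COL6A1 and 0.09 with a standard error of 0.06 for COL6A2, the latter 0.05 without miR-375 inhibitor replicate 2. By the quasi-likelihood test of edgeR (Benjamini-Hochberg adjustment), 0 of the 5 fibroblast markers had an adjusted p under 0.05 and 2 an unadjusted p under 0.05, 1 higher (COL6A1) and 1 lower (LUM), beside 1.69% and 10.6% of all genes. DESeq2 gave 0 of the 2 with an adjusted p and 2 unadjusted, beside 5.63% of all genes. Calls of these markers depended on the settings: in the same edgeR test LUM was called without inhibitor NC replicate 3, with an adjusted p of 0.028, and COL6A1 with the 3 lowest Q30 libraries as a covariate, with 0.017.

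As PTPN5 is best known from neurons, 6 neuronal markers were read as well. SYP, GAP43 and DCX had between 0 and 6 counts in each library and SYN1 between 22 and 42. L1CAM, an adhesion molecule that some epithelial lines carry too, was the most abundant, with 9271, 10088 and 10201 counts with inhibitor NC against 9472, 9292 and 10568. The sum of the other neuronal markers was 11.4, 10.8 and 8.77 CPM against 8.88, 6.63 and 7.94. NLGN3, a neuroligin named after its values were seen, was lower in each miR-375 inhibitor library, with 125, 132 and 114 counts against 93, 70 and 98. It was the 1 neuronal marker of the 6 whose groups did not overlap, beside 14.1% of all genes. Of the 6 neuronal markers, 0 had an adjusted p under 0.05 by the quasi-likelihood test of edgeR (Benjamini-Hochberg adjustment), with 1 at an unadjusted p under 0.05, beside 1.69% and 10.6% of all genes. DESeq2 gave an adjusted p to 1 and called 0, with 1 at an unadjusted p under 0.05, beside 5.63% of all genes. NLGN3 was called in the same edgeR test without inhibitor NC replicate 3, with an adjusted p of 0.027, and with the 3 lowest Q30 libraries as a covariate, with 0.038. The part of these and of the fibroblast genes in the differences of NR4A1, PTPN5, PDE4A and ETV5 was not tested.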

How the data were processed

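Poly(A) RNA-seq of 6 libraries was used. Per the labels and the study's methods, the authors mapped clean reads with HISAT2 to the bovine genome UMD 3.1 and deposited raw counts per gene from featureCounts, without normalization. Strand and multiply mapped reads are not given in the sources used here, so overlapping genes on opposite strands and close paralogs cannot be told apart. Coordinates are not printed, as the reference table is of another build.

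The 6 count tables were joined by identifier. Symbols came from the study's supplementary tables (1410 identifiers, the first 1997 genes of one table being read), not from the bovine RefSeq table, which was used for neighbours only. Groups came from the labels. The 20755 genes counted at least once in some library were fitted with edgeR 4.0.16 in R 4.3.3 (TMM factors between 0.991 and 1.01, quasi-likelihood F test, no block), with Benjamini-Hochberg adjustment over all of them. A gene was called at an adjusted p under 0.05. Standard errors are the absolute log2 fold change divided by the square root of F. The biological coefficient of variation was 0.0653. Pairs of libraries within a group differed by more than sampling noise (chi-square divided by its degrees of freedom, 3.01 to 7.36), and each was counted as a replicate. Totals between 14479278 and 16324556 counts give 1 count a value between 0.0613 and 0.0686 CPM. Alternatives were DESeq2 1.42.0, its size factors in edgeR, 2 filters on low counts, the replicate number as a block, the Q30 side (3 lowest libraries by rank) as a covariate, and each library left out in turn. Chosen after the data were seen was a covariate that sets replicate 2 of both groups, below the widest gap in Q30, against the other 4 libraries. Scripts were tested on simulated data. Changes were planted there only in genes with higher mean counts than PTPN5 and PDE4A, and all were larger than the difference of ETV5.

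The members and lists were chosen with earlier results of these data known. Named were the 4 genes, in each list the called genes and the 3 with the highest mean, the 3 most alike genes of each member, the neighbours of ETV5, and the genes next to the study's criterion. Other names are marked in the text or belong to a marker list given whole. The study's own fold changes and p-values were not used. A gene of the nuclear receptor list is not reported here.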

Additional observations from a re-analysis of the deposited data

How the results depend on the processing

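The log2 fold changes kept their direction under every alternative that gave a value, and each stayed within the spread between replicates: from 0.84 to 1.22 for NR4A1, from 1.58 to 2.26 for PTPN5, from 1.21 to 1.75 for PDE4A and from -0.19 to -0.11 for ETV5. With filterByExpr PTPN5 was filtered out and gave no value. As the genes were chosen on this contrast, that is no sign of stability. Counts of calls depended on the settings. Of all genes, edgeR called 350 (adjusted p under 0.05), 74 in DESeq2, 0 of 16924 with at least 10 counts in total (1972 at an unadjusted p under 0.05), 0 of 14212 with filterByExpr (1844 unadjusted), and 856 with the Q30 side as a covariate. Without 1 library it called between 0 (without inhibitor NC replicate 1, with 1543 unadjusted) and 756 (without inhibitor NC replicate 3), with 167 without inhibitor NC replicate 2, and 125 and 204 without miR-375 inhibitor replicates 1 and 3. Of the 4 genes, 0 were called, but 1 (PDE4A) with the Q30 side and 0 to 1 without 1 library (NR4A1, without miR-375 inhibitor replicate 2).

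With the Q30 side as a covariate, 1 MAPK gene (RASA2), 1 cyclic AMP gene (GNB4) and 1 gene of the nuclear receptor list (NRIP1) were called, each lower. Without 1 library, the MAPK list gave 0 to 1 calls (TNIK without inhibitor NC replicate 3 or miR-375 inhibitor replicate 2, RASA2 without miR-375 inhibitor replicate 3), and the immediate early list 0 to 2 (NFKBIZ and RCAN1, without inhibitor NC replicate 3 or miR-375 inhibitor replicate 2). The ETS and phosphatase lists had 0 calls under every alternative. With the covariate for the 2 libraries below the Q30 gap, chosen after the data were seen, edgeR called 541 genes, among them 2 of the MAPK list (RASA2 and TNIK), 1 immediate early gene (NFKBIZ) and 0 of the 4 genes (4 at an unadjusted p under 0.05; DESeq2, fitted without a covariate only, gave 0 and 4). The cause was not tested.

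A replicate block in edgeR gave 840 called genes, among them NR4A1, 1 of the 4 genes, 2 of the MAPK list (RASA2 and TNIK), 2 immediate early genes (NFKBIZ and RCAN1) and 1 gene of the nuclear receptor list (NRIP1). The markers COL6A1 and NLGN3 were called too, and CLDN1 had an adjusted p of 0.0011 in edgeR. In the labels the libraries share only a number, but replicate 2 of both groups lay below the widest gap in Q30. Deviations from the group means correlated across 14137 genes at -0.03, 0.11 and 0.25 for replicates 1, 2 and 3. Of the 6 libraries, 3 correlated best with their own number. NR4A1, PTPN5 and PDE4A had few counts, and what could be detected at such counts was not tested.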
